A study of Mus musculus with 2 samples.

Results

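The integrated stress response (ISR) is run by a small set of transcription factors and by proteins that damp it, and 9 of their genes are described here: Atf4, Atf3, Atf5, Ddit3, Cebpb, Cebpg, Trib3, Nupr1 and Ppp1r15a. They were taken by gene symbol from the feature lists of both deposited single-cell RNA-seq matrices, which hold 22587 symbols. All 9 were found in both matrices. All 9 also had at least 20 UMIs in the class called neural stem cell (NSC) pool-like below, with the 2 libraries added together. UMIs are unique molecular identifiers, each standing for 1 captured mRNA.

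The libraries hold cells sorted from the adult mouse hippocampus for YFP signal and for the absence of propidium iodide. The Opa1 cKO mice carried Nestin-CreERT2, ROSA26YFP and Opa1-Flox, were given tamoxifen at 8 weeks of age and were collected at 12 weeks. The CT mice, named WT in the labels, carried Nestin-CreERT2 and ROSA26YFP without the floxed Opa1 allele. They too were given tamoxifen at 8 weeks of age and collected at 12 weeks. The labels print 1 strain name, with Opa1-Flox in it, for both libraries, so the control's genotype is taken from the sort protocol and the paper's methods. Cre was driven by the Nestin promoter, so recombination was expected in NSCs and their progeny and could also reach other Nestin-expressing cells. Cells of 3 mice per genotype had been pooled into 1 library each, and the mice could not be told apart. With 1 library per genotype there was no test between genotypes, and every difference below compares these 2 libraries. Intervals are 95% intervals of counting error only.

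CT had 4634 barcodes with 10799936 UMIs, and Opa1 cKO had 6475 with 18662032. Filters on detected genes, mitochondrial UMIs and at least 1 YFP UMI kept 1790 CT and 3764 Opa1 cKO cells, with a median of 2555 and 3008 UMIs. The libraries stood apart in their mt- share, the percent of a cell's UMIs from genes of the mitochondrial genome, whose median was 4.98% in CT and 0.895% in Opa1 cKO cells. They shared 36 barcodes, carried by 14 CT and 21 Opa1 cKO kept cells. With those cells left out, the median log2 ratio over the 9 genes in NSC pool-like cells, given below, was 2.80 in place of 2.79. Opa1, the floxed gene, had 70 UMIs in CT NSC pool-like cells, or 18.5 per 1000000 UMIs (CPM), and 68 UMIs or 7.28 CPM in the same class of Opa1 cKO, a log2 ratio of −1.35 (−1.85 to −0.84). The assay reads the 3′ end of a transcript, and the labels do not say which exons were floxed, so these UMIs do not check the deletion itself.

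Phosphorylation of the translation factor eIF2 by any of several kinases lowers general protein synthesis and at the same time favours translation of a few mRNAs, above all that of ATF4. ATF4 is a basic leucine zipper (bZIP) factor that pairs with other bZIP proteins and switches on genes of amino acid supply, tRNA charging and stress defence, and some of the genes it switches on act back on the pathway. Mitochondrial damage is among the known triggers. In NSCs of the dentate gyrus, where new neurons arise throughout life, the ISR has been linked to the balance of survival and growth. UMIs count mRNA, so they do not show the translation step at which ATF4 is mainly controlled.

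Heterodimers of ATF4 with C/EBP proteins recognise a composite element, and its core was searched for in RefSeq promoter windows of GRCm38.p6 from 250 bases before to 50 bases after each transcript start. The letters were TGATGNAA, or TTNCATCA when read on the other strand, and both strands were counted. All 9 genes had a window, and 3 of the 9 held the letters: Atf3, Nupr1 and Trib3. Among all windows 1304 of 32851 held them (3.97%), and by gene 1219 of 27025 (4.51%). The 250 bases upstream of the RefSeq starts of Atf3 and Nupr1 are shown because their matches begin at the same distance, 110 bases before the start, and because both genes were higher in the Opa1 cKO library, Atf3 on few UMIs. Capitals mark the match, and both genes are read from the minus strand.
Atf3, chr1:191183334-191183583 (−): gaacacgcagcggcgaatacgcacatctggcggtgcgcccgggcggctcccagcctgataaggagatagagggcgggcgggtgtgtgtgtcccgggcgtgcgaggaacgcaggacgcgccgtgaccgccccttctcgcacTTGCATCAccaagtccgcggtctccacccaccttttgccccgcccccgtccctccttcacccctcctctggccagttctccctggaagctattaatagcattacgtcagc
Nupr1, chr7:126625471-126625720 (−): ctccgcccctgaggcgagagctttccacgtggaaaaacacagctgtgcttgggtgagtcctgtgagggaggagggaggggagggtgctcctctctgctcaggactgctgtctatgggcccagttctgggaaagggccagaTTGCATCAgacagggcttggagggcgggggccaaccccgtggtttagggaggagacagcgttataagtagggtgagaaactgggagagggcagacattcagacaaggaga

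The match of Trib3 begins 14 bases after its RefSeq start. It is shown with 30-base stretches of Asns, Pycr1 and Chac1, ATF4 target genes outside the 9 and among those with the largest differences between the libraries. No match was found for Gdf15, Stc2, Eif4ebp1, Slc1a5 or Aldh18a1, which were also among those, and not every listed gene had a window.
Trib3, chr2:152344028-152344057 (−): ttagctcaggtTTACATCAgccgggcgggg
Asns, chr6:7693214-7693243 (−): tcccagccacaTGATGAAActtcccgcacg
Pycr1, chr11:120643833-120643862 (−): tgccctgtgtaTGATGCAAtgcacaaggct
Chac1, chr2:119351038-119351067 (+): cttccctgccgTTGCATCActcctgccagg
No match was present in these windows of Atf4, Atf5, Ddit3, Cebpb, Cebpg or Ppp1r15a, which says only that these letters are not in the windows searched. A match is a description of the sequence and not evidence of binding.

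NSC pool-like cells, named from astroglial and stem cell markers such as Aldoc, Sox9 and Hopx, were the largest class, with 1380 CT and 2858 Opa1 cKO cells. These markers do not tell NSCs from astrocytes, so the class may hold both. The 10 markers of the class summed to 69776 CPM (CT) and 62445 CPM (Opa1 cKO), and none was at 0. The class joined 3 clusters that were formed without the 9 genes and their pathway. Cluster 0 held 43 CT and 1521 Opa1 cKO cells, cluster 1 held 751 and 752, and cluster 2 held 586 and 585, so most Opa1 cKO cells of the class came from a cluster with few CT cells. Nupr1, Ddit3 and Trib3 were among the leading genes of cluster 0. They had not been used to form it, but comparing a cluster mostly of Opa1 cKO cells with the rest largely repeats the comparison of libraries.

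All 9 genes were at least 2-fold higher in Opa1 cKO in this class, against 4.62% of the 11421 genes that reached 20 UMIs. The median of the 9 log2 ratios was 2.79, and the median of all genes tested was 0.05. The interval of each of the 9 lay above 0, but the share of all genes with such an interval is not given. The plot of all genes by mean level sets the 9 beside the rest.

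**Figure D1:**
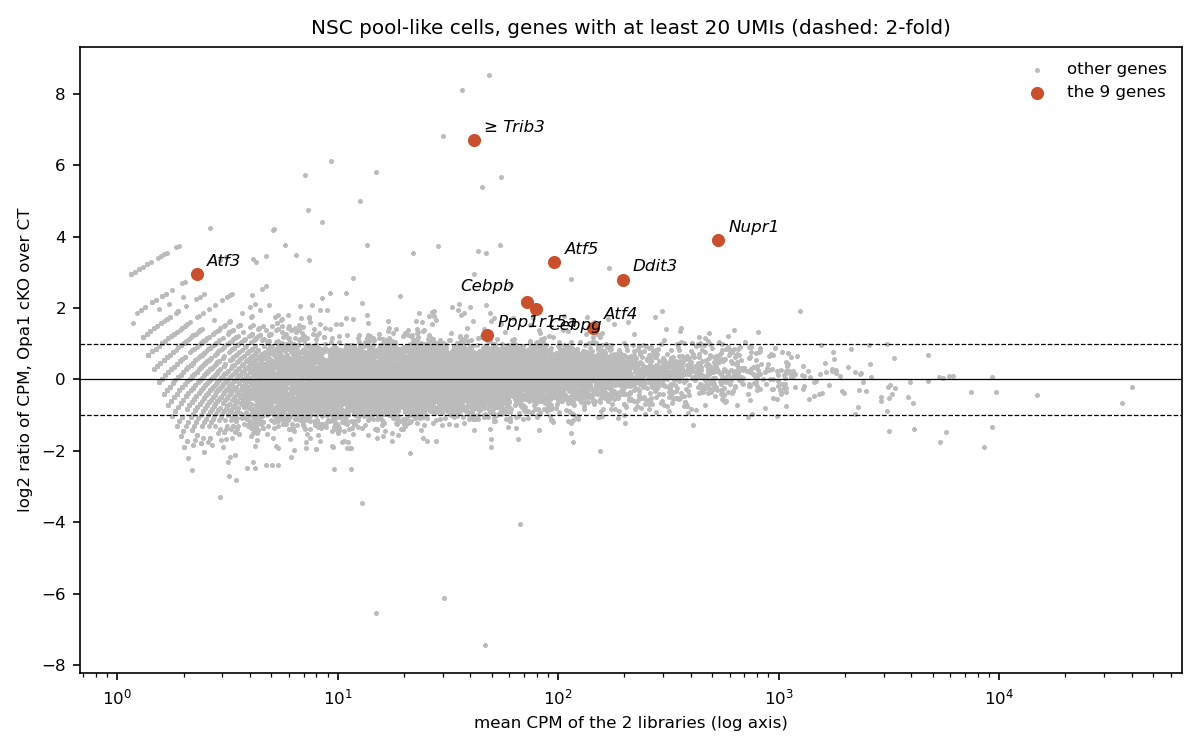
Each point is a gene that reached 20 UMIs among NSC pool-like cells, with the mean CPM of the 2 libraries on a log axis and the log2 ratio of CPM, Opa1 cKO over CT, on the vertical axis; dashed lines mark 2-fold. The 9 genes (red) lie above the upper dashed line, and Trib3, with 0 UMIs in CT, is drawn at 6.70, its ratio with CT set at 3 UMIs.

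Atf4, the central bZIP factor of the ISR, lies on chromosome 15 at 80255184 to 80257541 (GENCODE M21 on mm10, as for all gene positions here). In NSC pool-like cells it had 293 UMIs or 77.5 CPM (68.9 to 86.9) in CT, against 1974 UMIs or 211 CPM (202 to 221) in Opa1 cKO. The levels did not overlap within counting error, and the log2 ratio was 1.45 (1.27 to 1.63), the second smallest of the 9. Its rank by log2 ratio was 211 of 11421 genes.

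Among the bZIP partners of ATF4, Ddit3 had the most UMIs and Atf5 the largest ratio. Ddit3 encodes CHOP, a C/EBP-family factor linked to prolonged stress and cell death, and lies on chromosome 10 at 127290774 to 127296288. CT cells held 187 UMIs of it or 49.5 CPM, and Opa1 cKO cells 3203 UMIs or 343 CPM. That is a log2 ratio of 2.79 (2.58 to 3.01), and its rank was 56. A further identifier with the symbol Ddit3 overlaps this gene and had 0 UMIs, and reads that fall on both could have been left uncounted. Atf5 (chromosome 7, 44812256 to 44816658) encodes a close relative of ATF4 that has been tied to the mitochondrial unfolded protein response. Its UMIs numbered 68 (18.0 CPM) among CT cells but 1625 (174 CPM) among Opa1 cKO cells. Its log2 ratio was 3.27 (2.92 to 3.65) and its rank was 38.

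The 2 C/EBP genes lay closer together. Cebpb (chromosome 2, 167688915 to 167690418), a factor of differentiation and inflammation, was at 26.2 CPM in CT (99 UMIs) and at 119 CPM in Opa1 cKO (1108 UMIs). Its log2 ratio was 2.18 (1.88 to 2.49). Cebpg (chromosome 7, 35046422 to 35056573), whose product lacks a strong activation domain and works as a dimer partner, was at 32.3 CPM (122 UMIs) and 127 CPM (1186 UMIs), a log2 ratio of 1.98 (1.71 to 2.26). These intervals overlapped, so the 2 genes did not differ in their ratio beyond counting error. Atf3 (chromosome 1, 191170296 to 191218039), a stress-induced factor that often represses, was nearly absent from these cells. Its 2 UMIs among CT cells and 38 among Opa1 cKO cells gave 0.529 and 4.07 CPM, and its log2 ratio of 2.94 had the widest closed interval of the 9, 0.99 to 6.04.

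Of the feedback regulators, Trib3 and Nupr1 had the largest ratios of the 9 genes and Ppp1r15a the smallest. Trib3 (chromosome 2, 152337422 to 152344032) encodes a pseudokinase that binds ATF4 and damps its activity. No CT cell had a UMI of it, against 773 UMIs or 82.7 CPM among Opa1 cKO cells. That is 104-fold higher when CT is set at 3 UMIs, and the lower limit of its log2 ratio was 6.40. With CT set so, Trib3 ranked 4 of 11421 genes. Nupr1 (chromosome 7, 126623249 to 126630861), a small stress-induced chromatin protein also called p8, was at 66.9 CPM in CT (253 UMIs) and at 999.5 CPM in Opa1 cKO (9340 UMIs). Its log2 ratio was 3.90 (3.72 to 4.09) and its rank was 16. Ppp1r15a (chromosome 7, 45522916 to 45526268) encodes GADD34, which brings a phosphatase to eIF2 and so ends the response. With 107 UMIs (28.3 CPM) in CT against 624 (66.8 CPM) in Opa1 cKO it had a log2 ratio of 1.24 (0.94 to 1.55), and its rank was 315.

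Some other measures moved with the library in the same cells. Markers of microglia summed to 70.6 CPM (CT) and 144 CPM (Opa1 cKO) among NSC pool-like cells, with none of 9 at 0 in either. Markers of oligodendrocyte precursors summed to 115 and 308 CPM, with 1 of 6 at 0 in each, and haemoglobin and related markers of red blood cells to 310 and 9.63 CPM, with none of 5 at 0. The 21 genes of the immediate early and dissociation list summed to 950.4 and 1080 CPM. The part of these cells and of the mt- share in the differences was not tested.

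The median over the 9 genes changed with the cells that entered it. Of 108 single-gene values in this class under alternative settings, not counting the removal of cluster 0, 106 stayed within their main interval. The median is the value of 1 gene, Ddit3 in the main setting. Atf3 lay next above it at 2.94 on 2 CT UMIs, so a lower Atf3 ratio alone can change the gene at the median. It was 2.11 without the YFP filter, 2.06 with each cell thinned to 1500 UMIs and 2.03 in cells of 2000 to 4000 UMIs. Without cluster 0, a choice made after the data were seen, it was 1.64, and 7 of 9 genes were at least 2-fold higher. No share of all genes is given for that setting, so this count has no background. NSC pool-like cells without a YFP UMI, which enter no other value of the report except those without the YFP filter, had 8 of 9 genes past 2-fold beside 2.56% of all genes.

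The share of cells with a UMI followed the levels. Since the Opa1 cKO cells were deeper, each cell was thinned to 1500 UMIs, and 94 shallower NSC pool-like cells of CT and 238 of Opa1 cKO were dropped. Nupr1 was then seen in 8.01% of 1286 CT cells (6.58 to 9.63, exact binomial interval) against 54.7% of 2620 Opa1 cKO cells (52.8 to 56.6). Unthinned, the shares were 11.9% and 64.8%. Oligodendrocyte-like cells, which differed least between the libraries, gave thinned shares of 2.70% and 7.92%, so Nupr1 in NSC pool-like cells stood above that level in Opa1 cKO. Ddit3 was seen in 6.69% of thinned CT and 32.6% of thinned Opa1 cKO cells of the NSC pool-like class, against 14.9% in oligodendrocyte-like cells of both libraries. The CT value for Ddit3 in NSC pool-like cells therefore lay at or below the oligodendrocyte-like share, and the Opa1 cKO value lay above it. Oligodendrocyte-like cells had a Ddit3 level of their own, 90.3 CPM in CT against 49.5 CPM in CT NSC pool-like cells. Their share is therefore no measure of background.

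For Atf4 the thinned shares of NSC pool-like cells were 10.5% (CT) and 24.9% (Opa1 cKO), with 5.41% and 12.9% in oligodendrocyte-like cells. Atf5 was seen in 2.02% and 20.8%. The shares of Cebpb were 3.73% and 14.5%, those of Cebpg 4.98% and 16.7%, and those of Ppp1r15a 3.58% and 8.74%. In these genes too the intervals of the 2 libraries did not overlap. For Trib3, 0 of 1380 CT cells had a UMI before thinning. The exact binomial interval allows a share of cells with a UMI of up to 0.267%. It sets no limit on cells that express the gene. For comparison 19.6% of Opa1 cKO cells had one. Atf3 was seen in 0.156% (0.0188 to 0.561) and 0.611% (0.349 to 0.990) of thinned cells, and those intervals overlapped. Single cells reached at most 17 UMIs of Ddit3 and 27 of Nupr1 in the Opa1 cKO library, compared with 3 and 6 in CT.

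The 9 genes were next followed through the other classes, which were named from their own markers. These were progenitor and neuron-like cells (147 CT and 303 Opa1 cKO cells), ependymal-like (39 and 245), mural-like (95 and 167), endothelial-like (55 and 90) and oligodendrocyte-like cells (74 and 101). Activated NSC-like cells (49 and 289) came out only when lineage cells were clustered again, and 8 CT and 130 Opa1 cKO cells of the progenitor and neuron-like class fell into them there. The levels by class show where each gene stood.

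**Figure D2:**
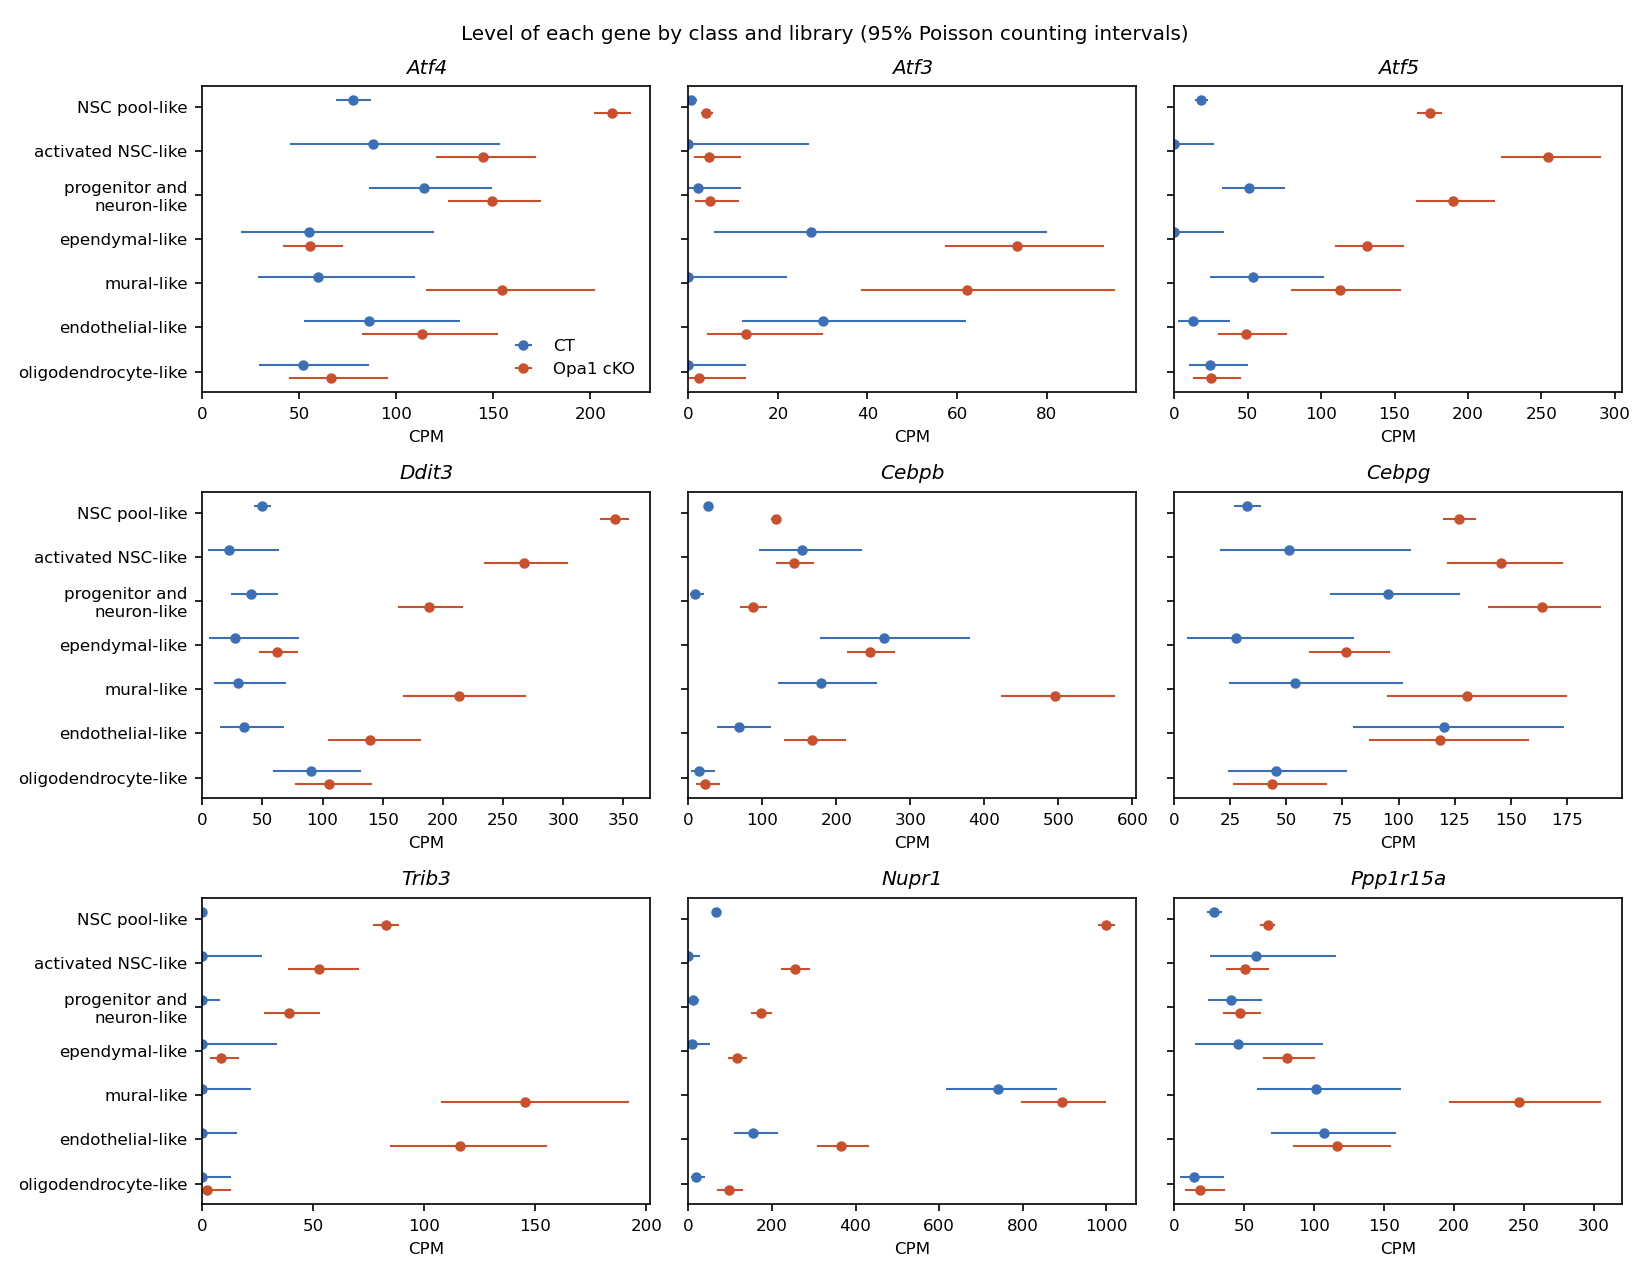
Each panel shows 1 gene, with CPM on the horizontal axis (linear, a scale per panel), the 7 classes in rows, CT in blue and Opa1 cKO in red; bars are exact 95% Poisson intervals. In NSC pool-like cells the bars of the 2 libraries are apart for all 9 genes, whereas in oligodendrocyte-like cells they are apart only for Nupr1, at 17.4 and 96.4 CPM.

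Mural-like cells, which surround small vessels, include pericytes and smooth muscle. They followed NSC pool-like cells most closely by count, with 8 of 9 genes at least 2-fold higher in Opa1 cKO against 7.52% of all genes. Their median log2 ratio was 1.37. Trib3, with no UMI in CT, had 49 UMIs or 145 CPM among Opa1 cKO mural-like cells (107.5 to 192), an interval that overlapped that of endothelial-like cells at 116 CPM. Cebpb was 179 and 495 CPM, a log2 ratio of 1.47 (0.90 to 2.08), and 495 CPM was its highest level of any class and library. Ppp1r15a was 101 and 246 CPM, a log2 ratio of 1.28 (0.51 to 2.13). Nupr1 was the gene below 2-fold, at 740.0 CPM in CT mural-like cells and 893 CPM in Opa1 cKO ones. Its ratio was 0.27, and the interval (−0.04 to 0.58) crossed 0. Of its 124 UMIs in CT mural-like cells, 47 came from 1 cell. That cell raised the CT level and so lowered this ratio, and the counting interval does not cover such an effect. The interval of Atf5, at a ratio of 1.07, also reached past 0 (−0.004 to 2.30). The 21 UMIs of Atf3 in Opa1 cKO mural-like cells came from 5 cells, with 12 in 1 of them.

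In endothelial-like cells 5 of the 8 genes that reached 20 UMIs were at least 2-fold higher in Opa1 cKO (background 4.42%) and none at least 2-fold lower (background 7.59%). Atf3, with 7 and 5 UMIs, did not reach 20, and its interval of −3.22 to 0.65 crossed 0. Markers of red blood cells summed to 42.9 CPM in CT endothelial-like cells, with 2 of 5 at 0, and to 30539 CPM in those of Opa1 cKO, with none at 0. Their part in the differences was not tested. Trib3 again had no UMI in CT, beside 45 UMIs or 116 CPM in Opa1 cKO. Ddit3 was 34.4 and 139 CPM, and Nupr1 was 155 and 366 CPM. Cebpg, at 120.2 and 119 CPM, and Ppp1r15a, at 107 and 116 CPM, had ratios of −0.02 and 0.11 and intervals that crossed 0. The median of 1.24 was 0.52 both without the YFP filter and in cells of 2000 to 4000 UMIs, so this median depended on which cells were kept.

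Progenitor and neuron-like cells had 5 of the 8 genes that reached 20 UMIs at least 2-fold higher in Opa1 cKO, beside 11.3% of all genes. Atf3, with 1 and 5 UMIs, had a ratio of 1.20 whose interval crossed 0 (−1.96 to 6.77), and with it included the median log2 ratio was 1.90. The class differed in make-up between the libraries. Its own 13 markers summed to 19444 CPM (CT) and 9588 CPM (Opa1 cKO), and the 10 NSC pool-like markers to 5720 and 17576 CPM, with none at 0. Their part in the differences was not tested. Nupr1 was 10.6 and 174 CPM, Cebpb 8.47 and 86.8 CPM, and Ddit3 40.2 and 188 CPM. Atf4 was 114 and 149 CPM, a ratio of 0.38 (−0.07 to 0.86), and Ppp1r15a was 40.2 and 46.8 CPM, so neither stood apart beyond counting error. When activated NSC-like cells were taken out by clustering the lineage again, 4 of the 7 genes that reached 20 UMIs were past 2-fold (background 5.12%) and the median of the 8 with a value was 1.16. Activated NSC-like cells themselves had 5 of 8 genes past 2-fold, against 11.7% of all genes, and a median of 1.39. There Atf5 and Nupr1 each had 222 UMIs in Opa1 cKO and none in CT. Both were 11.6-fold higher with CT set at 3 UMIs, with a lower limit of 3.23 for the log2 ratio. Cebpb (154 and 142 CPM) and Ppp1r15a (58.5 and 50.5 CPM) had intervals that crossed 0. The CT side of that class rested on 49 cells and 136679 UMIs. Immediate early and dissociation genes summed to 7404 CPM there, with 2 of 21 at 0, and to 2813 CPM in Opa1 cKO, with 1 at 0, and their part was not tested.

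Ependymal-like cells, the ciliated lining of the ventricles, had 5 of 8 genes past 2-fold (background 13%) and a median of 1.30. Only Atf5 (no UMI in CT, 131 CPM in Opa1 cKO) and Nupr1 (9.13 and 116 CPM) had intervals above 0. Atf5 was 4.79-fold higher with CT set at 3 UMIs, and the lower limit of its log2 ratio was 1.94. Atf4 was level, at 54.8 and 55.6 CPM, and so was Cebpb, at 265 and 246 CPM. Atf3 was 27.4 and 73.4 CPM, with only 3 UMIs in CT and an interval that crossed 0. At 73.4 CPM it was the highest Atf3 level of any class and library, though its interval (57.3 to 92.8) overlapped that of Opa1 cKO mural-like cells. The immediate early and dissociation list, of which Atf3 is not a member, summed to 2447 CPM (CT, 4 of 21 at 0) and 5227 CPM (Opa1 cKO, none at 0) in ependymal-like cells, and its part was not tested.

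Oligodendrocyte-like cells, the myelinating glia, differed least. Of 7 genes with a value, 4 of which reached 20 UMIs, Nupr1 alone was at least 2-fold higher, with 5 and 42 UMIs and a log2 ratio of 2.47 (1.14 to 4.17), beside 5.0% of all genes. The other 6 ratios ran from −0.05 to 0.72, every interval crossed 0, and the median was 0.35. Their median mt- share was 4.85% in CT and 4.77% in Opa1 cKO, the smallest gap between the libraries of the 6 classes of the first clustering. It was 3.49% and 3.11% in endothelial-like cells, and 3.53% and 2.25% in mural-like cells. Progenitor and neuron-like cells had 4.22% and 1.38%, and ependymal-like cells 6.41% and 0.686%. The part of the mt- share in the differences between classes was not tested.

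**Figure D3:**
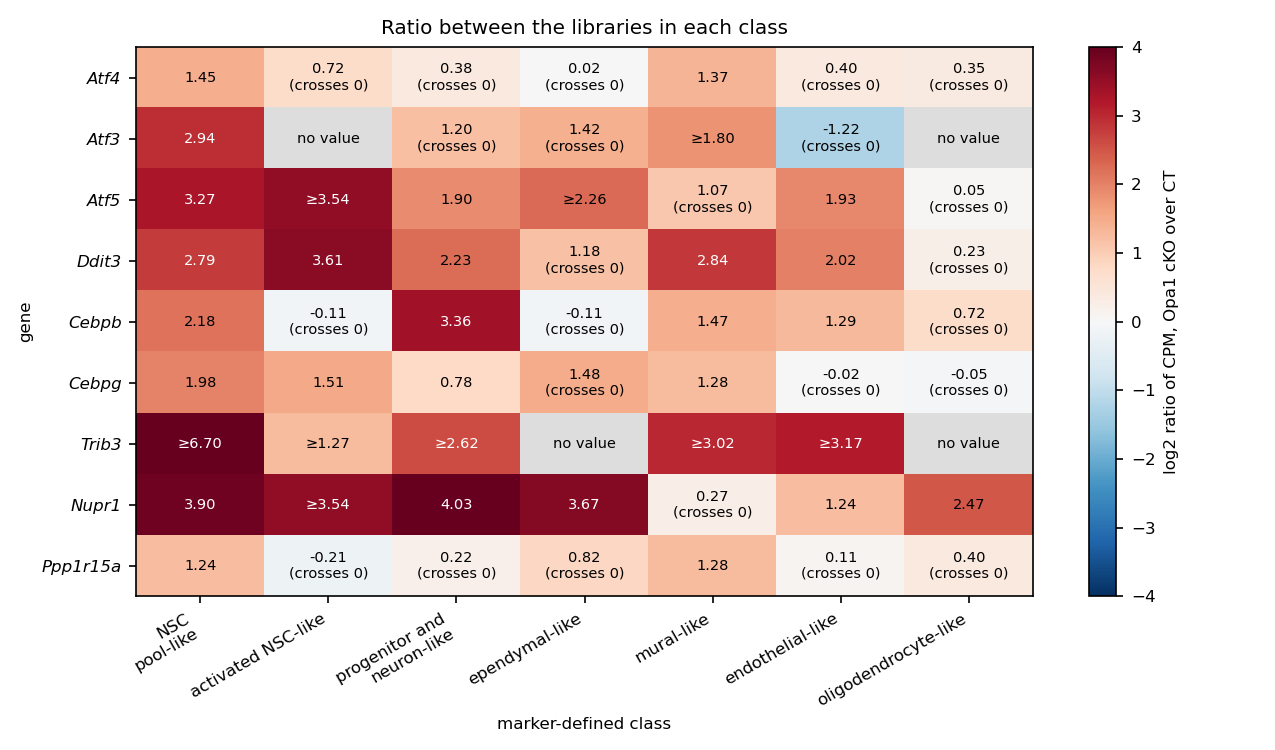
Log2 ratio of CPM, Opa1 cKO over CT, for each of the 9 genes (rows) and 7 classes (columns), coloured from −4 to 4. The sign "≥" marks a gene at 0 UMIs in CT, with CT set at 3 UMIs, which is not a limit of its interval. The words "crosses 0" mark a 95% counting interval that includes 0. The NSC pool-like column holds ratios from 1.24 to 3.90, and 6.70 for Trib3 so set, with a lower limit of 6.40. No cell of the grid has an interval below 0.

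Across classes no gene had an interval below 0, and no gene was past 2-fold in all 7. The order of classes also differed from gene to gene. In the Opa1 cKO library NSC pool-like cells were highest for Atf4, Ddit3 and Nupr1, mural-like cells for Cebpb, Ppp1r15a and, with the overlap given above, Trib3, activated NSC-like cells for Atf5 and ependymal-like cells for Atf3. For Cebpg progenitor and neuron-like cells were highest at 164 CPM, with an interval (140.0 to 191) that overlapped that of activated NSC-like cells at 146 CPM. For Nupr1 the first 2 classes, NSC pool-like at 999.5 CPM and mural-like at 893 CPM (795 to 999.7), did not differ clearly beyond counting error.

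The mt- share separated the Opa1 cKO NSC pool-like cells. A share under 1% was found in 1669 of them and a share of 1 to 3% in 404, while 785 had 3% or more. In CT the same groups held 3, 108 and 1269 cells, so no CT level is given for the lowest group. Cells were placed in the groups by mt- genes alone, but the limits of 1% and 3% were chosen with earlier results of these data known. The groups also come from 1 library each, and cells of a library are not replicates.

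Within the Opa1 cKO library all 9 genes were at least 2-fold higher in cells with a share under 1% than in those with 3% or more, against 6.31% of all genes, with a median log2 ratio of 2.54. The median of all genes in that comparison was 0.23. Ddit3 was 469 CPM (452 to 488) in cells under 1%, 355 CPM (322 to 389) at 1 to 3% and 63.5 CPM (54.1 to 74.1) at 3% or more. CT cells of 3% or more held 48.8 CPM (41.8 to 56.7). The highest group as a whole thus lay near CT, and the lowest was far above both. In the part of it at 3 to 5%, Ddit3 was 84.5 CPM (67.9 to 104) in Opa1 cKO and 50.1 CPM (38.8 to 63.7) in CT. At 5 to 10% it was 48.3 and 45.6 CPM.

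Nupr1 ran in the same order, from 1476 CPM under 1% to 667 CPM at 1 to 3% and 131 CPM at 3% or more, with 65.8 CPM in CT cells of 3% or more. Trib3 was 119, 70.1 and 9.74 CPM, and 0 in that CT group. Atf4 was 279, 206 and 67.4 CPM, beside 76.0 CPM in CT. For these 4 genes the intervals of the 3 Opa1 cKO groups did not overlap. Atf5 and Cebpb did not keep this order, since cells at 1 to 3% were as high as or higher than those under 1%. Atf5 was 220 CPM (208 to 233), 249.9 CPM (223 to 279) and 37.8 CPM, and Cebpb was 150.2, 157 and 31.6 CPM, with overlapping intervals of the 2 groups below 3% in both genes. Cebpg was 166, 134 and 38.6 CPM, and Ppp1r15a was 82.7, 75.0 and 28.5 CPM. Both kept the order, though the intervals of the 2 groups below 3% overlapped, for Cebpg only just. Atf3 had 27, 10 and 1 UMIs in the 3 groups. Cells at 1 to 3% were at least 2-fold above cells of 3% or more in all 8 genes that reached 20 UMIs there, beside 7.15% of all genes, and the median over the 9 was 2.35.

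**Figure D4:**
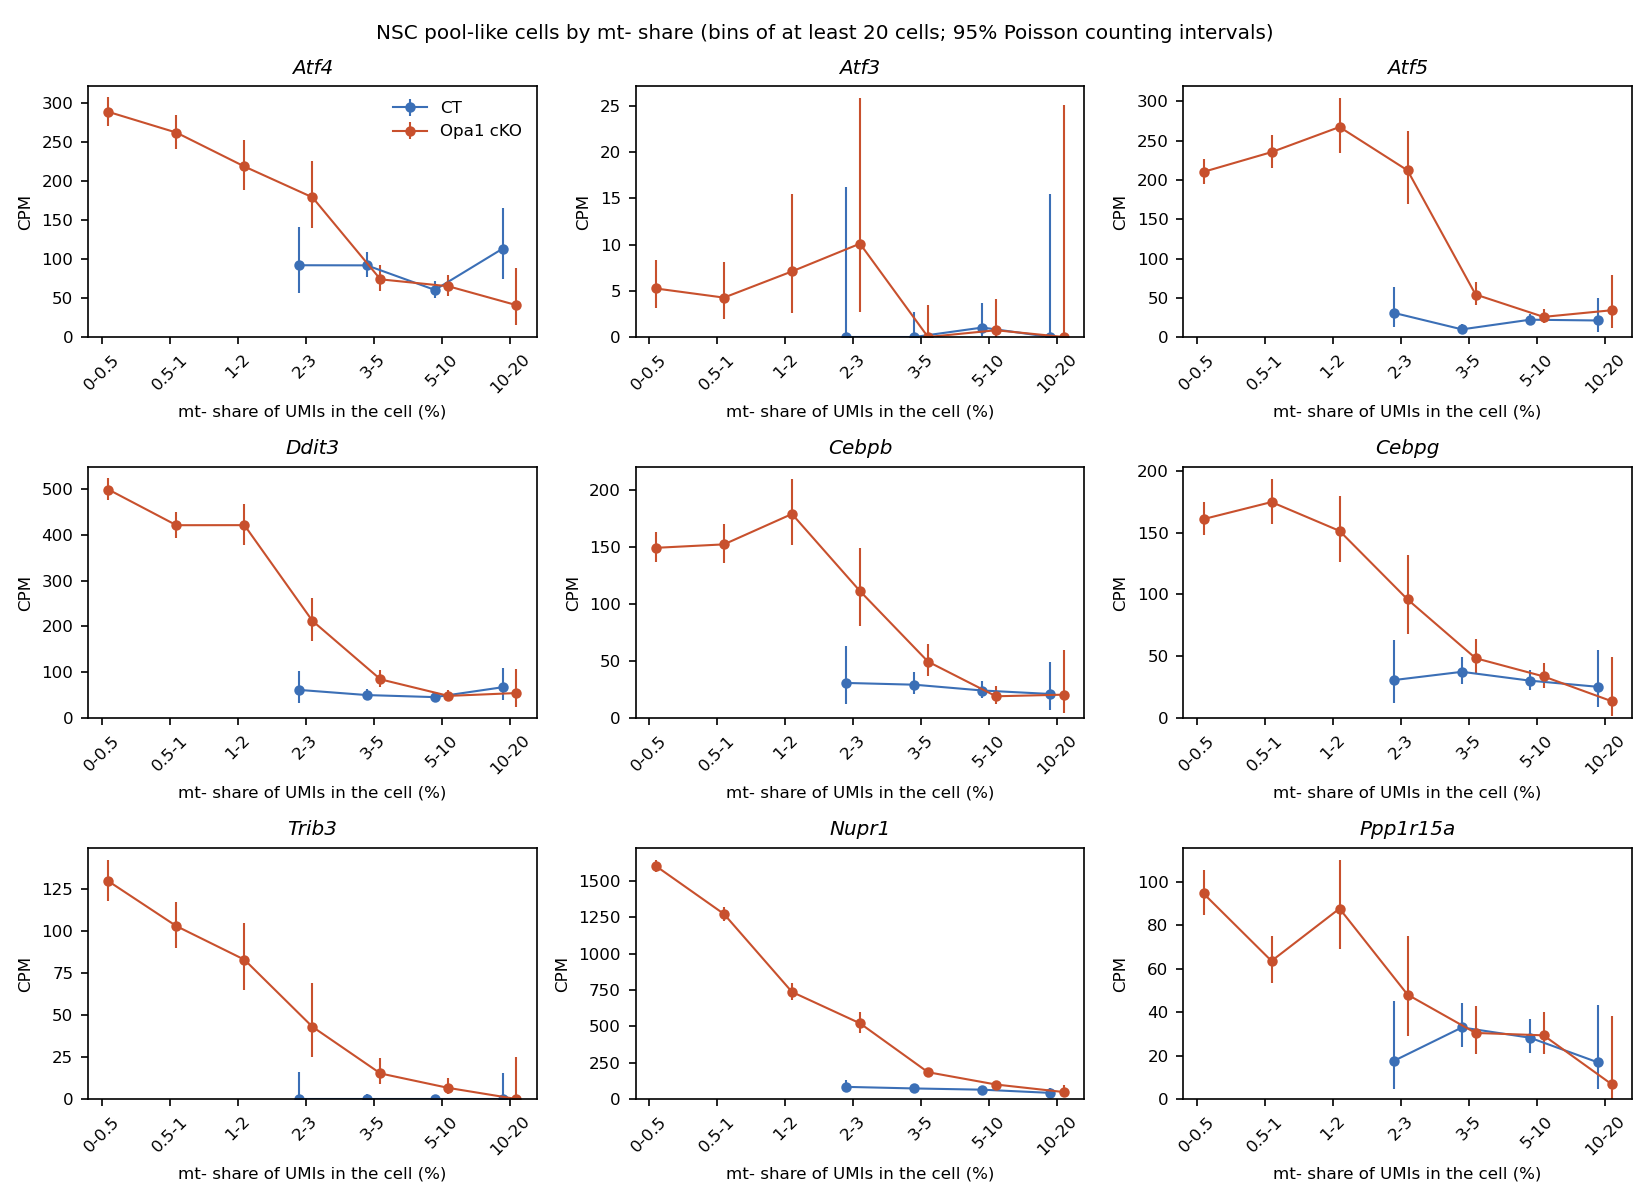
CPM of each gene (linear vertical axes) in NSC pool-like cells by mt- share in 7 bins from 0-0.5% to 10-20%, drawn where a bin holds at least 20 cells; blue is CT, red Opa1 cKO, and bars are exact 95% Poisson intervals. Opa1 cKO levels of Nupr1 run from 1602 CPM in the lowest bin to 47.7 CPM in the highest, and CT, drawn from 2-3% upward, stays low throughout.

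The libraries were also compared at a matched mt- share of 3% or more. The median log2 ratio of Opa1 cKO over CT was 0.34 over the 8 genes with a value, and that of all genes was −0.12. Trib3 and Atf5 were past 2-fold, 2 of 8 beside 1.04% of all genes. Trib3 had 0 and 25 UMIs and was 11.4-fold higher with CT set at 3 UMIs, and the lower limit of its log2 ratio was 3.11. Atf5 was 17.3 and 37.8 CPM, a ratio of 1.13 (0.65 to 1.61). Nupr1 was just under the threshold at 1.00 (0.75 to 1.24), and Ddit3 was 0.38 (0.06 to 0.70). Atf4, at −0.17, Ppp1r15a, at −0.04, Cebpb and Cebpg had intervals that crossed 0. With 2 and 1 UMIs Atf3 had no value.

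At a share of 1 to 3% all 8 with a value were at least 2-fold higher in Opa1 cKO, with a median of 2.52 and a background of 12.4%. The CT side of this comparison was 108 cells and 250646 UMIs. Nupr1 was 75.8 and 667 CPM and Atf5 27.9 and 249.9 CPM. Within CT, cells at 1 to 3% and cells of 3% or more did not stand apart, since 0 of 7 genes were past 2-fold in either direction (backgrounds 5.43% higher and 7.31% lower), every interval crossed 0 and the median was 0.20. A difference of the 9 genes by mt- share was not detectable within CT NSC pool-like cells at this depth. Opa1 itself was 6.32, 4.03 and 10.9 CPM in the 3 Opa1 cKO groups and 18.2 CPM in CT cells of 3% or more. Immediate early and dissociation genes summed to 999.5, 1565 and 1021 CPM in the Opa1 cKO groups and to 945 CPM in CT cells of 3% or more. The 14 markers of activated NSC-like cells summed to 867, 1609 and 1083 CPM in those groups and to 884 CPM in those CT cells. Markers of oligodendrocyte precursors summed to 391, 287 and 140 CPM in the same Opa1 cKO groups, with 2, 2 and 1 of 6 at 0, and to 117 CPM in CT. The part of these genes was not tested.

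Each of the 3 clusters of NSC pool-like cells was also compared on its own. In cluster 2, whose CT and Opa1 cKO cells were similar in number (586 and 585), 7 of 8 genes were at least 2-fold higher in Opa1 cKO (background 4.43%), with a median of 2.26. The median mt- share there was 5.12% in CT and 0.704% in Opa1 cKO. Nupr1 was 67.6 and 946 CPM, Ddit3 was 55.3 and 327 CPM, and Ppp1r15a, the gene below 2-fold, was 28.9 and 49.2 CPM. In cluster 1, where the median mt- share was 5.23% and 4.68%, 4 of the 8 genes that reached 20 UMIs were past 2-fold (background 1.47%) and the median of the 9 was 0.91. Those 4 were Trib3, Nupr1, Atf5 and Ddit3, while Atf4 was 74.1 and 83.4 CPM, with an interval that crossed 0. In cluster 0, 7 of 8 were past 2-fold (background 11.5%) with a median of 2.22, though CT contributed 43 cells. Cebpb was the gene below 2-fold there, with an interval that crossed 0. The median was lowest in cluster 1, where it was 0.97 over the 8 genes that reached 20 UMIs. The medians of clusters 0 and 2 were also over 8 genes, since Atf3 had no value there. The part of the mt- share in the differences between clusters was not tested.

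The mt- share groups were read in other classes too. In Opa1 cKO mural-like cells Trib3 was 341 CPM under 1%, 87.9 CPM at 1 to 3% and 20.4 CPM at 3% or more, on 35, 12 and 2 UMIs. Atf3 was seen there only in the group of 3% or more. Opa1 cKO endothelial-like cells at 1 to 3% held 209 CPM of Trib3 and 500.4 CPM of Nupr1, and those of 3% or more held 31.0 and 243 CPM. In Opa1 cKO progenitor and neuron-like cells Ddit3 was 208, 166 and 210.2 CPM and Atf5 146, 217 and 205 CPM from the lowest group to the highest, with overlapping intervals. Nupr1 did keep the order there, at 233, 164 and 79.5 CPM. These groups held 107, 147 and 49 cells. Thinned Opa1 cKO ependymal-like cells carried a mean of 1.05, 1.02 and 0.882 of the 9 genes from the lowest group to the highest. The means were 1.51, 1.54 and 1.04 in activated NSC-like cells and 2.94, 1.69 and 2.04 in mural-like cells of that library.

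Small CT groups of other classes were compared in the same way. Ddit3 was 201 CPM in 24 CT progenitor and neuron-like cells at 1 to 3% (13 UMIs, 107 to 344) and 15.0 CPM in 120 such cells of 3% or more (6 UMIs, 5.49 to 32.5). Those intervals did not overlap, but they rest on 13 and 6 UMIs of 1 gene, singled out from the genes and classes read. No share of all genes is given for this comparison, so the gap in Ddit3 has no background. Whether Ddit3 differs by mt- share in CT progenitor and neuron-like cells was not tested. Nupr1 was 1519 CPM in 28 CT mural-like cells at 1 to 3%, but 47 of the 63 UMIs came from 1 cell, and without it the level was 418 CPM. CT mural-like cells of 3% or more held 484 CPM.

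How often the genes occurred together was counted in thinned cells. CT NSC pool-like cells carried a mean of 0.397 of the 9 genes and at most 3. Opa1 cKO cells carried a mean of 1.84 and at most 8. Cells in which none of the 9 was seen made up 66.5% of CT but 21.9% of Opa1 cKO, and those with 3 or more made up 0.544% and 31.4%. By mt- share the Opa1 cKO means were 2.47, 1.97 and 0.485 from the lowest group to the highest. The mean in CT cells of 3% or more was 0.395. Among Opa1 cKO cells under 1%, 3.68% had none of the 9.

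**Figure D5:**
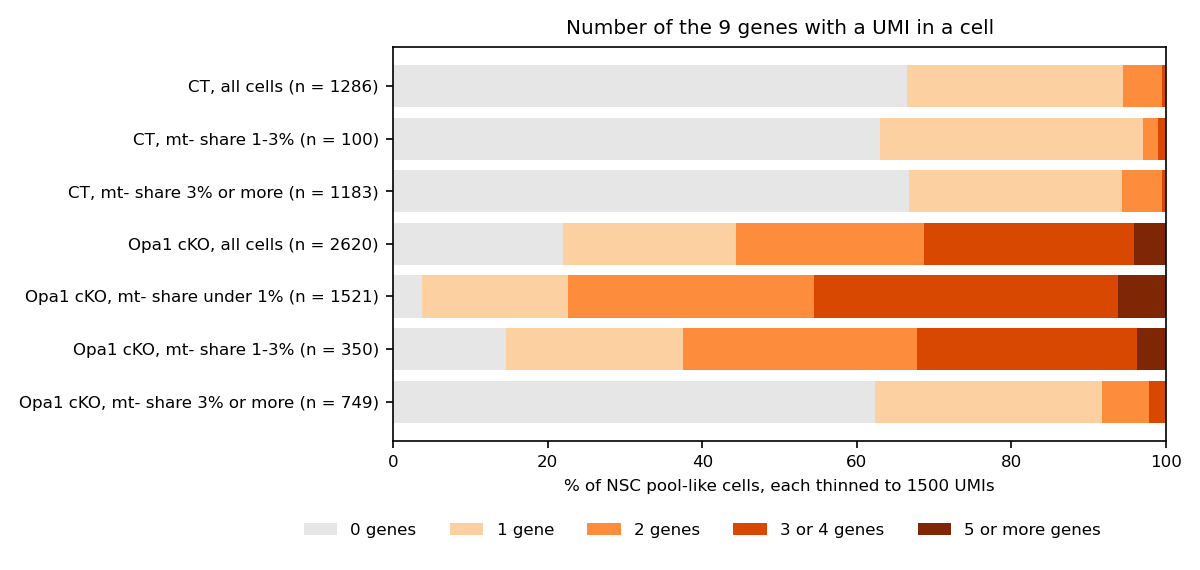
Bars show the percent of NSC pool-like cells, each thinned to 1500 UMIs, with a UMI of 0, 1, 2, 3 or 4, or 5 or more of the 9 genes, for each library and mt- share group (n, cells). Cells with none make up 66.8% of CT cells of 3% or more, 62.4% of Opa1 cKO cells of 3% or more and 3.68% of Opa1 cKO cells under 1%.

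Within the Opa1 cKO cells the genes were only loosely tied to each other. Over 2620 thinned cells, which share a library and a depth, Pearson's r between pairs of the 9 ran from 0.00786 (Atf3 with Nupr1) to 0.221 (Ddit3 with Nupr1). Among the 1521 cells under 1% it ran from −0.0295 to 0.0931. The cells under 1% were also split by their Atf4 UMIs. Nupr1 was seen in 77.9%, 77.8% and 76.8% of cells under 1% with 0, 1 and 2 or more Atf4 UMIs, and Ddit3 in 44.0%, 43.2% and 44.4%. Atf5 was seen in 24.8% (22.2 to 27.6), 32.3% (27.7 to 37.2) and 25.3% (17.1 to 35.0), and the first 2 intervals only just missed each other. Over all Opa1 cKO NSC pool-like cells the same shares were 50.7%, 66.0% and 70.8% for Nupr1, and 30.5%, 38.0% and 41.7% for Ddit3. At 1500 UMIs a cell most mRNAs present at few copies go unseen, so sparse counts limit these relations.

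Levels were also compared over 22 units, each a library, class and mt- share group with at least 20 cells and 50000 UMIs, among 5727 genes that reached 300 UMIs in the NSC pool-like class. The units share 2 libraries. The genes with levels most like Atf4, by Pearson's r of log2(CPM + 10), were Eif4ebp1 (0.862), Aen (0.858), Eprs (0.839), Eif2s2 (0.812) and Herpud1 (0.810). Those most like Ddit3 were Eprs (0.807), Gdf15 (0.796), Wars (0.795), Asns (0.793) and Trib3 (0.789). Of the 9 genes Cebpg was most like Atf4, at 0.759, whereas Atf3 was at −0.20.

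The other genes of the pathway were taken from lists by role and read in NSC pool-like cells against the same backgrounds, 4.62% of genes at least 2-fold higher and 3.69% at least 2-fold lower in Opa1 cKO. Upstream of ATF4, in the list of eIF2 kinases, eIF2 and eIF2B subunits and the mitochondrial relay to them, 2 of 14 genes were past 2-fold, both eIF2 subunits. Eif2s2 was 170.0 and 449 CPM, a log2 ratio of 1.40, and Eif2s1 was 33.1 and 72.5 CPM, a ratio of 1.13. The median of the list was 0.37. The 4 kinase genes, named after their values were seen, lay between −0.31 (Eif2ak3) and 0.04 (Eif2ak1), and every interval crossed 0.

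Downstream of ATF4 the differences were larger. In the list of amino acid and tRNA targets 27 of 35 genes were at least 2-fold higher in Opa1 cKO and none at least 2-fold lower, with a median of 1.53. Asns, asparagine synthetase, had 1 UMI in CT and 680 in Opa1 cKO cells, a log2 ratio of 8.10 (5.62 to 13.4). Pycr1, of proline synthesis, had 2 and 275 UMIs, a ratio of 5.80 (3.93 to 8.85). Slc1a5, a neutral amino acid transporter, was 1.85 and 25.4 CPM, and Aldh18a1, also of proline synthesis, was 3.97 and 53.3 CPM. The list of stress and secreted targets had 8 of 10 genes higher and 1 lower, with a median of 1.76. Gdf15, a secreted stress cytokine, had 1 and 901 UMIs, a ratio of 8.51 (6.03 to 13.8), and Chac1, which degrades glutathione, had 2 and 557 UMIs, a ratio of 6.82 (4.96 to 9.87). Stc2 had 2 and 90 UMIs, and Eif4ebp1, a brake on translation, was 28.6 and 200.3 CPM. Vegfa was the lower gene, at 153 and 68.8 CPM.

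The composite element was present in 10 of 25 genes of the amino acid and tRNA list that had a window and in 5 of 12 of the stress and secreted list. It was found in none of 11, 19, 19, 14 and 2 genes with a window in the other 5 lists. The target lists were drawn up from known ATF4 targets, so a share above that of all genes was built into them.

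Lists outside the ATF4 branch were read last. Of 21 other bZIP genes with at least 20 UMIs, 3 were at least 2-fold higher: Nfil3 (2 and 26 UMIs, 2.40), Nfe2l1 (18.0 and 76.6 CPM, 2.09), which responds to impaired protein breakdown, and Creb3l1 (11.6 and 30.2 CPM, 1.37). The median of the list was 0.18. The ER unfolded protein response list had none of 16 genes higher and Hyou1 lower (7.40 and 3.64 CPM, −1.03), with a median of 0.09. The immediate early and dissociation list had 2 of 19 higher, Socs3 (1.85 and 7.92 CPM) and Hspb1 (4 and 22 UMIs, 1.15), and 3 lower, Nr4a1 (−1.74), Fosb (−1.09) and Klf4 (−1.02), with a median of 0.15. With a minimum of 100 UMIs none of 10 remaining genes of that list was at least 2-fold higher. Relatives of Trib3, Nupr1 and Ppp1r15a (Trib1, Trib2, Nupr1l and Ppp1r15b) had none of 4 past 2-fold and a median of −0.16.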

How the data were processed

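The deposited values are counts of UMIs per gene and cell barcode, without normalization, made by the authors from single-cell 3′ v2 libraries (10x Genomics) aligned to mm10. The submitters' processing notes name Cell Ranger 2.1.1 and the matrix headers 3.1.0. Cells with over 600 and under 7500 genes, under 20% mt- UMIs and at least 1 YFP UMI were kept, after the paper's methods. This kept fewer cells of each library than the paper reports, so its set of cells was not rebuilt. Of cells that passed the other filters, the YFP filter kept 42.8% in CT and 61.5% in Opa1 cKO. Counts were normalized with SCTransform (sctransform 0.4.2) and clustered in Seurat 5.3.0 with R 4.3.3 on 8 dimensions at a resolution of 0.2, without mt- genes and without any listed gene. Activated NSC-like cells come from clustering the lineage again with 12 dimensions and resolution 0.1.

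Clusters were named from markers among their 50 leading genes, with at least 3 markers past 2-fold. Clusters that this left unnamed were compared with the named ones, using markers seen in at least 10% of their cells; that step was set after the clusters had been seen. Rebuilt names may differ from the study's. Scrublet (scanpy 1.11.5) called 0.263% of CT and 0.0817% of Opa1 cKO cells, too few to have worked, so doublets were kept.

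UMIs were summed per library, class and mt- share group and divided by all UMIs of those cells (CPM). Identifiers sharing a symbol were summed. CPM have exact Poisson intervals, shares exact binomial (Clopper-Pearson) intervals and ratios intervals from the exact binomial split of the 2 counts, all at 95%. The interval of a median is not given. Statements that intervals lay above 0 or did not overlap have no share over all genes beside them. A gene at 0 UMIs in 1 group was set at 3 counts for its ratio, which is not a limit of its 95% interval. A gene with at most 3 UMIs in each group, or whose ratio so set fell on the wrong side of 0, has no value. Backgrounds, ranks and lists hold genes with at least 20 UMIs in both groups together, and members below that are left out of the counts set beside a background. Thinning drew 1500 UMIs per cell with a fixed seed. Steps outside R used python 3.11.15, numpy 2.4.6, scipy 1.17.1, pandas 2.3.3 and matplotlib 3.10.9, and the interval code was tested on simulated data. Of 22625 rows 22587 symbols were distinct.

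The 9 genes, the lists and the mt- share limits were chosen with earlier results of these data known. Named beside the 9 were Opa1, up to 4 genes per list and direction with the largest ratios past 2-fold, and the 5 genes most like Atf4 and Ddit3. A set of 14 alternative settings was planned and 1 was added. No test between genotypes was possible with 1 library each.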

Additional observations from a re-analysis of the deposited data

Results flagged for a closer look

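Cells without a YFP UMI entered the comparisons above only where the YFP filter was dropped, and the same 9 genes differed between the libraries in them. Among 1906 CT and 1637 Opa1 cKO NSC pool-like cells without a YFP UMI, 8 of the 9 genes were at least 2-fold higher in Opa1 cKO, beside 2.56% of all genes, and the median log2 ratio was 1.93. Ppp1r15a was the gene below 2-fold, with 29.3 and 55.2 CPM and a ratio of 0.91 (0.59 to 1.25). Nupr1 was 53.0 and 556 CPM, and Trib3 had 2 and 161 UMIs, a ratio of 6.48 (4.60 to 9.54). Of these Opa1 cKO cells 35.4% had an mt- share under 1%, compared with 0.262% of the CT cells. Opa1 was 18.4 and 9.16 CPM. The cells had been sorted for YFP signal before sequencing, and whether the absence of a YFP UMI reflects depth or the cell was not tested. In the other classes of cells without a YFP UMI the median over the genes with a value was 1.05 for the progenitor and neuron-like class, 0.93 for mural-like cells, 0.69 for ependymal-like cells, 0.47 for endothelial-like cells and 0.24 for oligodendrocyte-like cells.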

How the results depend on the processing

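No paired analysis was possible because each genotype had 1 library and no test was run; for the same reason no replicate could be left out, and intervals cover counting only. No value whose interval excluded 0 changed sign under the 14 other settings listed at the outset or the 1 added later. Counts of genes under these settings have no share of all genes beside them. The 9 genes were at least 2-fold higher in NSC pool-like cells under each alternative, except that 8 of 8 remained testable with a minimum of 100 UMIs and 7 of 9 were past 2-fold without cluster 0. Their median of 2.79 there moved to 2.11 without the YFP filter, 2.06 after thinning to 1500 UMIs, 2.03 in cells of 2000 to 4000 UMIs and 1.64 without cluster 0, was 2.49 over the 8 genes left by the minimum of 100 UMIs, and lay between 2.69 and 2.80 under the other 9. Activated NSC-like cells gave no value without the YFP filter or at a resolution of 0.4. The median of 1.90 in progenitor and neuron-like cells was 1.17 with all variable genes in clustering and 1.16 with lineage cells clustered again, where fewer activated NSC-like cells remained in the class. In endothelial-like cells 1.24 became 0.52 without the YFP filter and 0.52 in cells of 2000 to 4000 UMIs. The median ran from 0.66 to 1.72 in ependymal-like cells, against 1.30, and from 0.06 to 0.62 at a matched mt- share of 3% or more, against 0.34. Within Opa1 cKO, the median of 2.54 for an mt- share under 1% against 3% or more was 2.22 without the YFP filter, 2.22 at a resolution of 0.4, 2.95 in cells of 2000 to 4000 UMIs and 2.99 with limits of 0.5% and 5%. Immediate early genes at least 2-fold higher numbered 0 in place of 2 with a minimum of 100 UMIs. That minimum sets which genes are counted, and the cause of the other moves was not tested. A further 117 summary values stayed within their intervals or within 1.5 times the count. For single genes 637 values stayed within their interval and 40 moved. Of those 677, 16 did not keep their sign, 8 of them in oligodendrocyte-like cells, and in NSC pool-like cells all 108 kept it.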
